A study of Mus musculus with 4 samples.

Results

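The unfolded protein response and the integrated stress response were examined in mouse optic nerve through 38 genes chosen by name. They comprise 14 chaperones and folding enzymes of the endoplasmic reticulum (ER), 7 sensors and ER-associated degradation genes including Xbp1, 2 kinases of the translation factor eIF2 alpha, 6 transcription factors and 9 effector genes that ATF4 is known to control. The tables list 55401 genes, of which 16751 passed a filter on low counts, and all 38 genes were among them. RNA of optic nerves was sequenced from Dor conditional knockout mice (Dor cKO, 2 libraries) and from Dor WT mice (2 libraries). Dor is a synonym of Trp53inp2, a gene of autophagy and nuclear receptor signalling. The driver of the deletion, the cells it acts in, age, sex, strain and the number of nerves per library are not given by the labels. Only the Dor WT tables have an age-like tag in their names, so whether the groups were matched for age is unknown, and an age difference and the genotype cannot be told apart. Nothing says that the libraries of a group came from separate animals, so p-values measure only the spread between these libraries, which may be technical.

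The ER folds secreted and membrane proteins, and myelinating glia make large amounts of membrane proteins. When unfolded proteins build up, the sensors IRE1 alpha (Ern1), ATF6 and PERK (Eif2ak3) raise the output of chaperones and of the degradation machinery. PERK and GCN2 (Eif2ak4), which senses lack of amino acids, also phosphorylate eIF2 alpha, which slows translation in general and favours translation of ATF4. ATF4 then drives genes of amino acid supply and of feedback control. In mouse models of myelin disease both responses are known to be active in oligodendrocytes. The tables hold RNA per gene, so splicing of Xbp1, cleavage of ATF6 and phosphorylation of eIF2 alpha were not measured.

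Promoter sequences show how the classes differ in DNA. RefSeq windows on GRCm38.p6, from 250 bases before to 50 bases after a start site, were held for 34 of the 38 genes. The ER stress element, which ATF6 and XBP1 are known to bind, was searched as CCAAT and CCACG with 9 bases of any kind between them, on both strands. It was present in 7 of 12 chaperone genes (58.3%), in 1 of 6 sensor and degradation genes, in 0 of 16 genes of the other 3 classes and in 0.137% of the 27025 genes in the RefSeq table. The C/EBP-ATF response element, the site of ATF4 with C/EBP partners, was searched as TGATGNAA. It was present in 4 of 8 effector genes (50%), in 2 of 6 transcription factor genes (33.3%), in Herpud1, in 0 of 12 chaperone genes and in 4.51% of all genes. The UPR element TGACGTGG was in 0 of the 34 genes and in 0.714% of all genes. The cAMP response element TGACGTCA was in Ppp1r15a alone among them and in 2.03% of all genes. The reversed end of the ER stress element shares its last bases with the UPR element, so places of these motifs can overlap in principle. With the UPR element in 0 of the 34 genes, no such overlap could arise here. A match of letters is a description and not a bound site. Because the classes were named by known function, including control by ATF4, these shares are no independent evidence of that control.

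The 7 chaperone promoters with an ER stress element are shown because their genes did not all differ between the groups. Capitals mark the element, each segment runs 5′ to 3′ along the gene with 20 bases on either side, and in Calr, Creld2 and the downstream place in Hsp90b1 the element lies on the other strand.
Hspa5 (chr2:34772005-34772063, plus strand): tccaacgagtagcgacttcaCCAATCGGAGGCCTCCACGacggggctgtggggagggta
Calr (chr8:84847055-84847113, minus strand): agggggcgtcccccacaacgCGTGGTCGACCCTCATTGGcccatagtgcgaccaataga
Dnajc3 (chr14:118937807-118937865, plus strand): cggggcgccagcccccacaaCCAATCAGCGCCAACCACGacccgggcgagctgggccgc
Hsp90b1 (chr10:86705513-86705676, minus strand): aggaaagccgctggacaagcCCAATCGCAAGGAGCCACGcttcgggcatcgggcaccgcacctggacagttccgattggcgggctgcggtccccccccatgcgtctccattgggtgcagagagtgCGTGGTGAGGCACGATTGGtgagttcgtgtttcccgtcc
Canx (chr11:50325780-50325838, minus strand): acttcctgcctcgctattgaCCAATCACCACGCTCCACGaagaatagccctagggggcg
Pdia6 (chr12:17266471-17266529, plus strand): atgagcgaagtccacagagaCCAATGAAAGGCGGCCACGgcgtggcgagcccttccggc
Creld2 (chr15:88819500-88819558, plus strand): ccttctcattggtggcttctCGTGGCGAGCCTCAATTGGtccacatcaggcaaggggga
The first 4 of these genes were higher in Dor cKO and the last 3 did not pass the test.

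Genes with the C/EBP-ATF response element went different ways, and 6 of them are shown for that reason, with the element in capitals and 20 bases on either side.
Slc7a11 (chr3:50443633-50443699, minus strand): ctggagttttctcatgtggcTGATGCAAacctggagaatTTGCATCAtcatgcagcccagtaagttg
Nupr1 (chr7:126625553-126625600, minus strand): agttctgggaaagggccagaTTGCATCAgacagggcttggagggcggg
Herpud1 (chr8:94386297-94386344, plus strand): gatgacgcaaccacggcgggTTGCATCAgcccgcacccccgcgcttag
Asns (chr6:7693205-7693252, minus strand): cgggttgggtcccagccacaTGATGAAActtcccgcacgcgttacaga
Atf3 (chr1:191183416-191183463, minus strand): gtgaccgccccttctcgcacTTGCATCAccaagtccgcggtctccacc
Chac1 (chr2:119351029-119351076, plus strand): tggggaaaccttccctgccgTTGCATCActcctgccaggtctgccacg
Slc7a11, with 2 places, Nupr1 and Herpud1 were higher in Dor cKO, Asns was lower, and Atf3 and Chac1 did not pass the test.

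**Figure D1:**
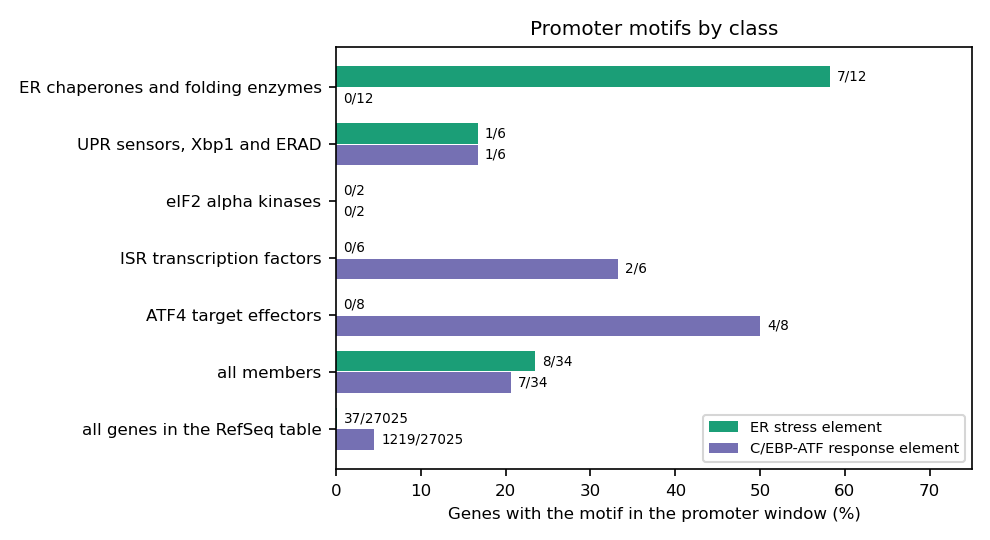
Share of genes with the ER stress element or the C/EBP-ATF response element in the promoter window, in percent, for the 5 classes, for all members and for all genes in the RefSeq table; labels give genes with the motif over genes with a window. The ER stress element was in 7 of 12 chaperone genes and the C/EBP-ATF response element in 4 of 8 effector genes.

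Library totals were 21162586 and 20928316 expected counts in Dor cKO and 17263820 and 21595825 in Dor WT. Trp53inp2 had 105 and 107 CPM (counts scaled to library size) in Dor cKO, against 138 and 134 CPM in Dor WT (log2 fold change -0.36, SE 0.04, edgeR adjusted p = 2.73e-08). Between libraries of a group, the chi-square of counts per gene was 2.19 in Dor cKO and 2.60 in Dor WT, above the value of 1 that sampling alone gives. That excess cannot show whether the libraries are independent, since library preparation may also give it. All 4 libraries were kept. The markers of the tissue were present. Oligodendrocyte and myelin genes were lower in Dor cKO in 15 of 15 cases, with summed TPM (a level scaled for transcript length) of 14291 to 14350 in Dor cKO and 25053 to 25256 in Dor WT. Astrocyte genes were higher in 9 of 10 cases and lower in 1 (8902 to 8940 against 8101 to 8116 TPM). Fibroblast and meningeal genes were higher in 10 of 10 (6333 to 6396 against 4892 to 4911 TPM) and microglia and macrophage genes in 7 of 10, with 1 lower (686 to 688 against 576 to 585 TPM). Of 8 endothelial genes, 3 were higher (165 to 169 against 145 to 153 TPM), or 37.5%. For comparison, at an edgeR adjusted p under 0.05, 14.3% of all tested genes were higher and 13.4% lower. Among tested genes whose mean reaches 10 CPM, the shares were 20.2% and 18.4%. Of 7 tested pituitary genes, 6 were lower, at 20.09 and 20.04 summed TPM in Dor cKO and 173.6 and 171.6 in Dor WT. Cga, the common subunit gene of pituitary glycoprotein hormones, had 0 counts in both Dor cKO libraries, against 275 and 376 in Dor WT. Prl, Fshb and Pou1f1 had 0 counts in both Dor cKO libraries and at most 5 in either Dor WT library, and were not tested. Whether the same tissue was taken in both groups was not tested, and a difference in dissection and the genotype cannot be told apart. In whole tissue, fewer cells of a type and less RNA per cell cannot be told apart, and the part of these shifts in the results that follow was not tested.

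Across the 38 genes, differences between the groups were small and mostly upward. At an edgeR quasi-likelihood adjusted p under 0.05, 14 genes rose and 1 fell in Dor cKO, or 36.8% and 2.63%. The background over all tested genes was 14.3% higher and 13.4% lower, or 27.7% in either direction. The 38 genes are more abundant than most: of the 35 whose mean reaches 10 CPM, 40% rose and 2.86% fell, against 20.2% and 18.4% of the 10589 tested genes that reach the same mean. The median log2 fold change was 0.07 over the 38 genes, with a range of -0.68 to 0.36, and -0.004 over all tested genes. CPM values did not overlap between the groups for 26 genes, 19 with both Dor cKO libraries above both Dor WT libraries and 7 below, where the backgrounds are 30.2% and 30.5% of tested genes. The number that rose was 9 without Dor cKO replicate 2 and 9 with DESeq2, and 0 when the biological coefficient of variation was set at 0.1 in place of the fitted 0.0348. Asns was the only gene of the 38 to stay past the threshold in that last fit.

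**Figure D2:**
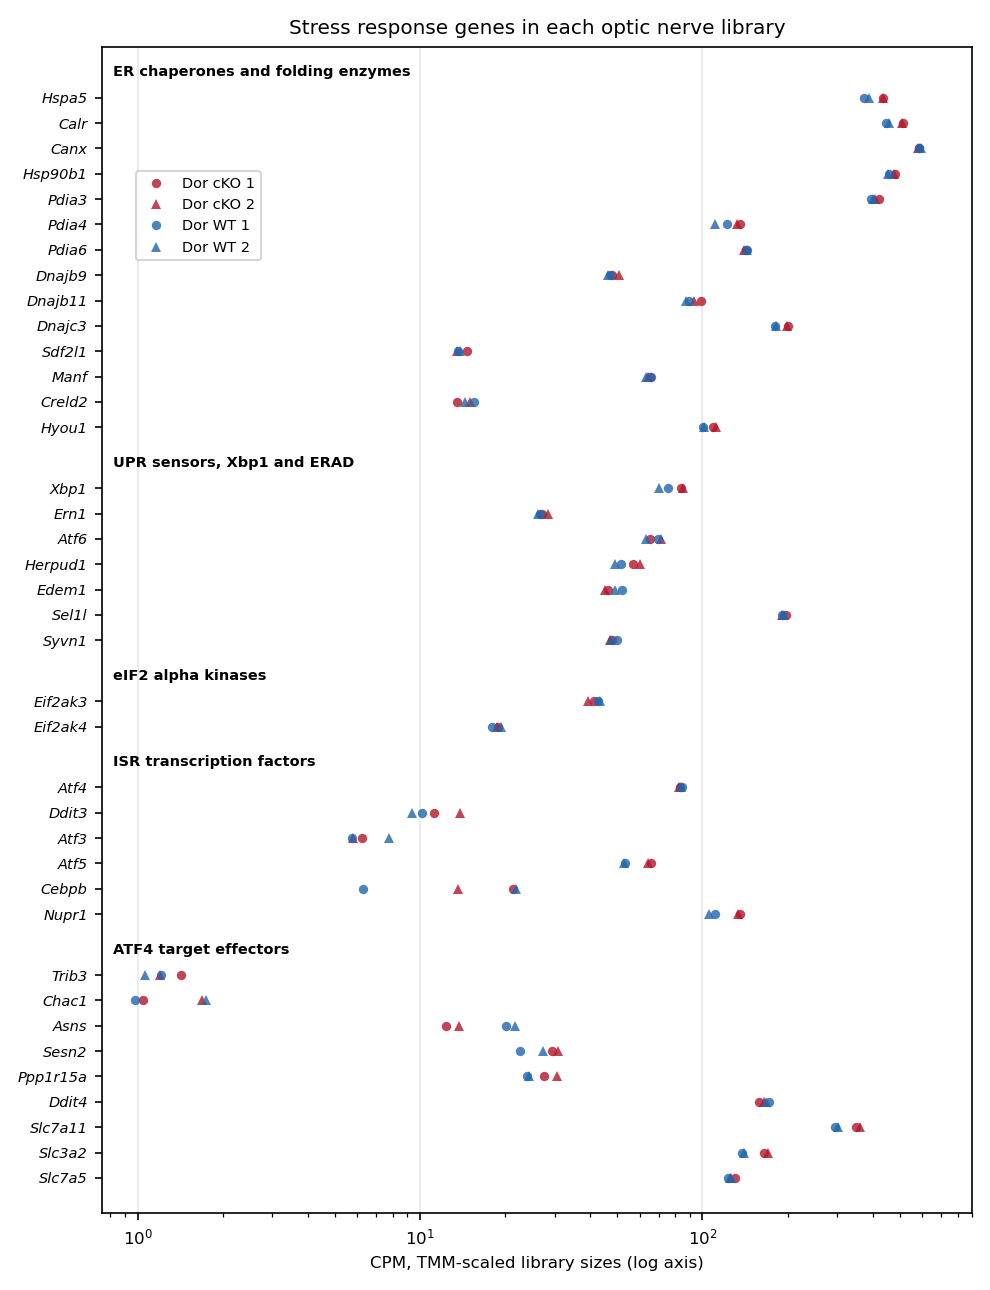
CPM of each of the 38 genes in the 4 libraries on a log axis, grouped by class; red marks Dor cKO and blue Dor WT, circles replicate 1 and triangles replicate 2. The groups lie close together for most genes, Asns is lower in both Dor cKO libraries, and Cebpb has its lowest value, 6.27 CPM, in Dor WT replicate 1.

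The ER chaperones and folding enzymes rose in 6 of 14 cases and fell in 0 (edgeR), with a median log2 fold change of 0.08 and a range of -0.06 to 0.21. At an unadjusted p under 0.05, 8 were higher and 0 lower. DESeq2 called 4 higher and 0 lower. By edgeR 42.9% of the class were higher, against 14.3% of all tested genes and 20.2% of those whose mean reaches 10 CPM. Hspa5 (chromosome 2, 34771970 to 34777547 on GRCm38), which encodes BiP, the main HSP70 chaperone of the ER lumen, had 434 and 437 CPM in Dor cKO, against 374 and 389 CPM in Dor WT. It was 1.14-fold higher (log2 fold change 0.19, SE 0.02, adjusted p = 2.62e-07), and both Dor cKO libraries lay above both Dor WT libraries. Calr encodes calreticulin, a lectin chaperone that binds calcium. Its values were 511 and 507 CPM in Dor cKO and 446 and 458 CPM in Dor WT (log2 fold change 0.17, SE 0.02, adjusted p = 5e-07). Pdia4, a disulfide isomerase gene, had 136 and 132 CPM in Dor cKO, against 122 and 111 CPM in Dor WT (log2 fold change 0.21, SE 0.04, adjusted p = 3.11e-04), the largest rise of the class. Both Dor cKO libraries again lay above both Dor WT libraries.

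Dnajc3, which encodes p58IPK, a co-chaperone that also inhibits PERK, had 201 and 200 CPM in Dor cKO and 181 and 183 CPM in Dor WT (log2 fold change 0.14, SE 0.03, adjusted p = 8.38e-04). Smaller rises were seen in Hyou1, an HSP110-like exchange factor gene of the ER, at 109 and 111 CPM in Dor cKO and 100 and 101 CPM in Dor WT (log2 fold change 0.13, adjusted p = 0.0226). Hsp90b1, which encodes GRP94, the HSP90 of the ER, had 481 and 475 CPM in Dor cKO and 458 and 454 CPM in Dor WT (log2 fold change 0.07, adjusted p = 0.0202). These last calls are weak ones. Hyou1 missed the threshold when Dor cKO replicate 1 (adjusted p 0.0622), Dor cKO replicate 2 (0.167) or Dor WT replicate 1 (0.0712) was left out. Hsp90b1 missed it when Dor cKO replicate 1 (adjusted p 0.202), Dor cKO replicate 2 (0.0671) or Dor WT replicate 2 (0.0828) was left out. With total count scaling the adjusted p was 0.0578 for Hyou1 and 0.115 for Hsp90b1.

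Other abundant chaperones gave values close to those of Dor WT. Canx, which encodes the membrane-bound partner of calreticulin, had 585 and 581 CPM in Dor cKO and 586 and 595 CPM in Dor WT. Its log2 fold change of -0.02 had a 95% interval of -0.06 to 0.02, so a rise of the size seen in Calr lies outside the interval. For Pdia6, a disulfide isomerase gene, the interval was -0.10 to 0.05. Manf, which encodes a secreted factor that ER stress induces, had an interval of -0.10 to 0.12. Dnajb9, a BiP co-chaperone gene known as a sensitive target of XBP1, had 47.8 and 50.8 CPM in Dor cKO and 46.9 and 46.3 CPM in Dor WT (log2 fold change 0.08, interval -0.05 to 0.21). Dnajb11, another co-chaperone of BiP, had 98.5 and 93.7 CPM in Dor cKO and 89.8 and 87.4 CPM in Dor WT, a difference that did not pass (log2 fold change 0.12, adjusted p = 0.0573). It passed without a low-count filter (adjusted p = 0.0415). Pdia3, the isomerase that works with calreticulin and calnexin, did not pass (log2 fold change 0.06, adjusted p = 0.0742), and passed without Dor WT replicate 2 (adjusted p = 0.0467). The least abundant genes of the class, Sdf2l1 and Creld2, had 13.5 to 15.1 CPM in Dor cKO and 13.6 to 15.5 CPM in Dor WT with overlapping groups. Both are known to rise sharply with ER stress. The interval of the log2 fold change was -0.21 to 0.28 for Sdf2l1 and -0.30 to 0.18 for Creld2.

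On the TPM scale the chaperone class summed to 2255 and 2195 in Dor cKO, against 2054 and 2101 in Dor WT, 1.07 times as high. Calr, Hspa5, Canx, Hsp90b1 and Pdia3 held 18.1%, 15.3%, 13.7%, 12.6% and 10.9% of that sum, so it mainly follows a few genes.

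Among the sensors and degradation genes, Xbp1 and Herpud1 rose, 0 of 7 fell, and the median log2 fold change was 0.05. At an unadjusted p under 0.05, 2 were higher and 1, Edem1, was lower. By DESeq2, 1 was higher and 0 lower. The share higher by edgeR was 28.6%, against 14.3% of all tested genes and 20.2% of those whose mean reaches 10 CPM. Xbp1, which encodes the transcription factor that IRE1 alpha activates by splicing its RNA, had 84.1 and 85.3 CPM in Dor cKO, against 75.6 and 69.9 CPM in Dor WT. It was 1.17-fold higher (log2 fold change 0.22, SE 0.05, adjusted p = 1.34e-03). Spliced and unspliced forms were not separated. Herpud1, an ER membrane protein gene of the degradation complex, had 57.0 and 60.3 CPM in Dor cKO and 51.5 and 49.2 CPM in Dor WT (log2 fold change 0.22, SE 0.06, adjusted p = 6.01e-03). With Dor cKO replicate 2 left out, Herpud1 missed the threshold (log2 fold change 0.18, adjusted p = 0.106).

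The sensor genes themselves did not pass the test. Ern1 had 27.0 and 28.3 CPM in Dor cKO and 26.7 and 26.1 CPM in Dor WT (95% interval -0.10 to 0.24). Atf6 had 65.3 and 71.4 CPM in Dor cKO and 69.5 and 63.0 CPM in Dor WT, with overlapping groups (interval -0.07 to 0.17). The degradation genes Sel1l and Syvn1, an adaptor and a ubiquitin ligase of the same complex, had log2 fold changes of 0.01 and -0.04, with intervals of -0.06 to 0.07 and -0.17 to 0.09. Edem1, which encodes a lectin that directs misfolded glycoproteins to degradation, had 46.3 and 45.3 CPM in Dor cKO and 51.7 and 48.9 CPM in Dor WT (log2 fold change -0.13, adjusted p = 0.127). Both Dor cKO libraries lay below both Dor WT libraries.

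Neither eIF2 alpha kinase gene on the list passed the test. Eif2ak3 had 41.4 and 39.3 CPM in Dor cKO and 42.8 and 43.4 CPM in Dor WT (log2 fold change -0.09, interval -0.23 to 0.04). Eif2ak4 had 18.9 and 18.7 CPM in Dor cKO and 18.0 and 19.4 CPM in Dor WT (log2 fold change 0.005, interval -0.20 to 0.21). At an unadjusted p under 0.05, and by DESeq2, 0 of these 2 differed.

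Of the 6 transcription factor genes, Nupr1 and Atf5 rose (33.3%) and 0 fell. Among all tested genes 14.3% were higher and 13.4% lower, and among those whose mean reaches 10 CPM 20.2% and 18.4%. The median log2 fold change of 0.28 lay between Atf5 (0.30) and Cebpb (0.27), and the interval of Cebpb was -3.02 to 3.55. Counts of the class at an unadjusted p under 0.05 were 3 higher and 0 lower, and by DESeq2 2 and 0. Atf4 itself, whose activity is set mainly by translation, had 83.5 and 82.7 CPM in Dor cKO and 84.7 and 84.2 CPM in Dor WT (log2 fold change -0.02, interval -0.12 to 0.07). Nupr1, a stress-induced chromatin protein gene, had 136 and 133 CPM in Dor cKO, against 111 and 105 CPM in Dor WT. It was 1.25-fold higher (log2 fold change 0.32, SE 0.04, adjusted p = 2.15e-07) and held 61.6% of the TPM of its class. Atf5, an ATF4-related factor that is also controlled through translation, had 65.9 and 64.3 CPM in Dor cKO and 53.2 and 52.7 CPM in Dor WT (log2 fold change 0.30, SE 0.06, adjusted p = 1.52e-04).

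Ddit3, which encodes CHOP, a factor linked to cell death under lasting ER stress, had 11.2 and 13.8 CPM in Dor cKO and 10.1 and 9.39 CPM in Dor WT. The groups did not overlap and the fold change was 1.29, but the test missed the threshold (log2 fold change 0.36, SE 0.14, adjusted p = 0.0522). It passed without a low-count filter (adjusted p = 0.0450) and without Dor cKO replicate 1 (log2 fold change 0.50, adjusted p = 0.0251). Atf3, a factor induced by many stresses, had 6.24 and 5.78 CPM in Dor cKO and 5.76 and 7.78 CPM in Dor WT, with overlapping groups. Whether counting used strand is not stated, and exons of 11 of the 38 genes overlap a gene on the opposite strand. Among them are Ddit3 with Mars, Atf5 with Nup62 and Cebpb with Tmem189, and their log2 fold changes were -0.08 for Mars, 0.05 for Nup62 and 0.02 for Tmem189, all short of the threshold.

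Cebpb, which encodes a C/EBP factor that pairs with ATF4 relatives, varied more within a group than between the groups. Its values were 21.3 and 13.6 CPM in Dor cKO and 6.27 and 21.9 CPM in Dor WT. The libraries of Dor WT differed by 1.80 on the log2 scale. Of 12320 genes averaging 5 CPM or more, 3 reached or passed this gap, with Cebpb itself counted among them. Its single-exon transcript has a GC content of 67.2%, higher than that of 99.8% of tested genes, whose median is 50.7%. The part of base composition in this gap was not tested. The fitted log2 fold change of 0.27 (adjusted p = 0.876) became -0.33 without Dor WT replicate 1 and 1.48 without Dor WT replicate 2 (adjusted p = 0.0321), so these data give no direction for Cebpb.

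The 9 effector genes of ATF4 split, with 4 that rose (44.4%), 1 that fell (11.1%) and 4 that did not pass. Over all tested genes 14.3% were higher and 13.4% lower, and over those whose mean reaches 10 CPM 20.2% and 18.4%. The median log2 fold change of 0.22 was the value of Trib3, which had 21 to 30 counts per library and an interval of -0.67 to 1.11. At an unadjusted p under 0.05, 4 of the 9 were higher and 1 lower, and DESeq2 called 2 higher and 1 lower. Slc7a11, the light chain gene of the cystine-glutamate exchanger, had 350 and 361 CPM in Dor cKO, against 294 and 301 CPM in Dor WT (log2 fold change 0.25, SE 0.03, adjusted p = 4.97e-09). Slc3a2, which encodes the heavy chain that carries it and other transporters to the membrane, had 165 and 170 CPM in Dor cKO and 138 and 140 CPM in Dor WT (log2 fold change 0.27, SE 0.03, adjusted p = 4.58e-07). In both genes each Dor cKO library lay above each Dor WT library. Slc7a5, the light chain gene of the large neutral amino acid transporter and another partner of Slc3a2, had 130 and 125 CPM in Dor cKO and 123 and 126 CPM in Dor WT and did not pass (interval -0.04 to 0.12).

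Ppp1r15a, which encodes GADD34, the subunit that directs a phosphatase to eIF2 alpha, had 27.6 and 30.6 CPM in Dor cKO and 24.0 and 24.4 CPM in Dor WT (log2 fold change 0.27, SE 0.09, adjusted p = 0.0199). Sesn2, a sestrin gene that restrains mTORC1 signalling, had 29.2 and 30.8 CPM in Dor cKO and 22.5 and 27.2 CPM in Dor WT (log2 fold change 0.27, SE 0.09, adjusted p = 0.0253). Each call rested on single libraries. Ppp1r15a missed the threshold when Dor cKO replicate 2 (adjusted p 0.268) or Dor WT replicate 1 (0.0579) was left out. Sesn2 missed it when Dor cKO replicate 1 (adjusted p 0.0503), Dor cKO replicate 2 (0.175) or Dor WT replicate 1 (0.311) was left out, in the last case with a log2 fold change of 0.14. DESeq2 called neither Ppp1r15a (adjusted p = 0.133) nor Sesn2 (adjusted p = 0.142). Without Dor WT replicate 1, and likewise without Dor cKO replicate 2, 2 effector genes rose in place of 4.

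Asns (chromosome 6, 7675169 to 7693254 on GRCm38), which encodes asparagine synthetase, a classical target of the GCN2-ATF4 pathway, went the other way. It had 12.4 and 13.8 CPM in Dor cKO, against 20.2 and 21.7 CPM in Dor WT, so the groups were far apart relative to their spread. It was 1.61-fold lower (log2 fold change -0.68, SE 0.11, adjusted p = 1.32e-05), the largest difference among the 38 genes. The call was lost with limma on log2(TPM + 1), where the log2 fold change was -0.49 (adjusted p = 0.181).

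Ddit4, which encodes REDD1, an inhibitor of mTORC1 that ATF4, glucocorticoids and low oxygen are known to induce, had 158 and 165 CPM in Dor cKO and 171 and 168 CPM in Dor WT (log2 fold change -0.07, adjusted p = 0.144). Other glucocorticoid induced genes were higher in Dor cKO in 6 of 8 cases (75%), with a median log2 fold change of 0.29. Hypoxia induced genes were higher in 4 of 10 (40%). Among all tested genes 14.3% were higher, and among those whose mean reaches 10 CPM 20.2%. Trib3 and Chac1, a pseudokinase gene and a glutathione-degrading enzyme gene that mark strong activation of ATF4, had few counts. Trib3 had 30 and 25 counts in Dor cKO and 21 and 23 in Dor WT. Chac1 had 22 and 35 counts in Dor cKO and 17 and 38 in Dor WT. Their intervals, -0.67 to 1.11 and -0.89 to 0.86, span large changes in either direction, so no difference was detectable at this depth.

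**Figure D3:**
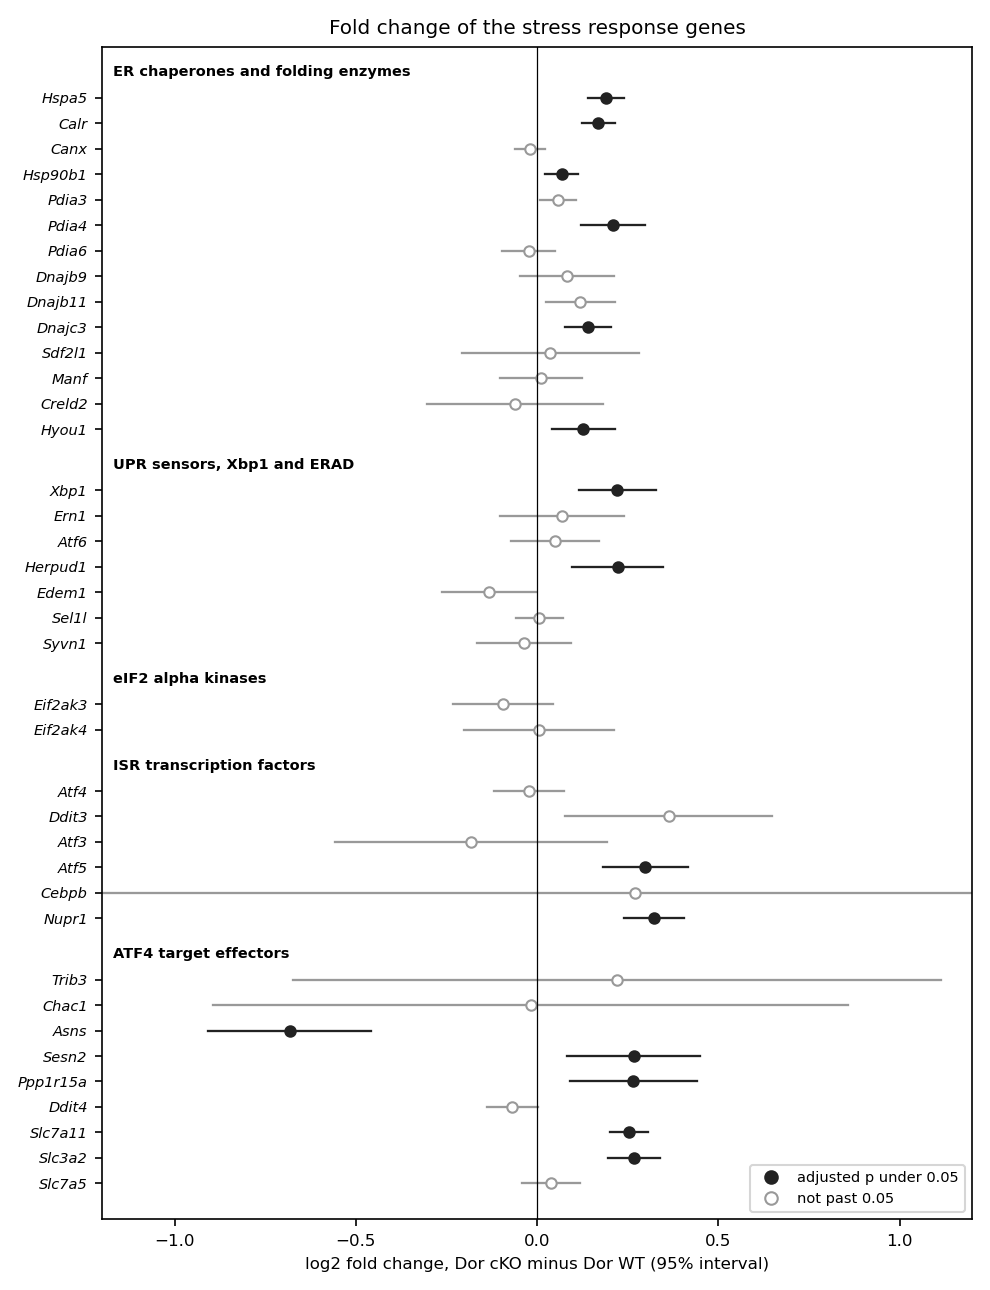
Log2 fold change (Dor cKO minus Dor WT) with its 95% interval for each of the 38 genes; filled circles passed an adjusted p of 0.05. The interval of Cebpb, -3.02 to 3.55, runs past the axis; Asns at -0.68 is the only filled circle below 0.

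Set side by side, the chaperones gave a median log2 fold change of 0.08 with 6 of 14 higher and 0 lower, and the ATF4 effectors 0.22 with 4 of 9 higher and 1 lower. The shares higher were 42.9% and 44.4%, and the shares lower 0% and 11.1%. Among all tested genes 14.3% were higher and 13.4% lower, and among those whose mean reaches 10 CPM 20.2% and 18.4%. The effector median was the value of Trib3, which had few counts. It was 0.15 without Dor WT replicate 1, while the chaperone median was 0.07 to 0.09 with any library left out. On the log2(TPM + 1) scale the effectors gave 0.034 and the chaperones 0.071. With a pseudocount of 0.1 the medians were 0.065 and 0.072, so the order of the 2 classes turned around on the TPM scale. Summed TPM of the effectors was 464 and 482 in Dor cKO and 456 and 459 in Dor WT, with 34.2% of it from Ddit4 and 31.1% from Slc3a2. The ratio of chaperone to effector TPM was 4.86 and 4.56 in Dor cKO and 4.5 and 4.57 in Dor WT, so the groups overlapped in this ratio.

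Other genes of the same pathways were read from lists that were written with earlier results of these data known. Among 24 tested genes of ER folding and redox, 6 rose and 2 fell, with a median log2 fold change of 0.06. Txndc5, a thioredoxin-like folding enzyme gene, had 230 and 228 CPM in Dor cKO and 187 and 192 CPM in Dor WT (log2 fold change 0.28, adjusted p = 2.11e-08). P4hb, a disulfide isomerase gene that also serves collagen hydroxylation, rose by 0.09 (adjusted p = 2.49e-03), and Ppib, a prolyl isomerase gene, did not pass (0.04). Clgn, a calnexin relative known from testis, had 10.8 and 9.92 CPM in Dor cKO and 18.7 and 16.8 CPM in Dor WT (log2 fold change -0.77, adjusted p = 1.15e-05), and Dnajb2, a co-chaperone gene, fell by 0.27 (adjusted p = 7.83e-05). The summed TPM of the fibroblast and meningeal genes was 1.2985 times as high in Dor cKO. The part of that shift was not tested.

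Of 20 other degradation genes, 3 rose and 2 fell (median 0.08). March6, an ER ubiquitin ligase gene, rose by 0.20 (adjusted p = 5.69e-08), whereas Man1b1, an ER mannosidase gene, fell by 0.25 (adjusted p = 1.75e-04). Vcp, the ATPase that pulls substrates out of the ER membrane, had a log2 fold change of -0.01. Among 25 genes of ER translocation and coats, 6 rose and 2 fell (median 0.04). Sec24d, a coat gene of vesicles that leave the ER, rose by 0.35 (adjusted p = 9.32e-06), Srpr, a receptor gene of the signal recognition particle, rose by 0.21 (adjusted p = 7.19e-05), and Ssr3, a translocon-associated gene, fell by 0.19 (adjusted p = 3.34e-07). The signal peptidase genes Spcs1 and Spcs2 had log2 fold changes of 0.004 and 0.05 and did not pass. The shares higher were 25% for folding and redox, 15% for degradation and 24% for translocation and coats, and the shares lower 8.33%, 10% and 8%. Over all tested genes they were 14.3% higher and 13.4% lower, and over those whose mean reaches 10 CPM 20.2% and 18.4%.

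Of the 24 tested other ATF4 target genes, 6 rose and 4 fell, or 25% and 16.7%, with a median log2 fold change of -0.004. The shares were 14.3% and 13.4% over all tested genes, and 20.2% and 18.4% over those whose mean reaches 10 CPM. Psat1, an enzyme gene of serine synthesis, had 204 and 213 CPM in Dor cKO, against 288 and 286 CPM in Dor WT (log2 fold change -0.46, adjusted p = 2.19e-13). Vldlr, a lipoprotein receptor gene, fell by 0.44 (adjusted p = 2.76e-07). Slc38a2, a glutamine and alanine transporter gene that amino acid shortage induces, had 1286 and 1258 CPM in Dor cKO and 1080 and 1068 CPM in Dor WT (log2 fold change 0.24, adjusted p = 1.18e-12). Sqstm1, an autophagy receptor gene, rose by 0.16 (adjusted p = 2.95e-05). Grouped by function after their values were seen, the 9 amino acid transport genes of the members and this list gave 5 higher and 0 lower. The 10 genes of amino acid and one-carbon synthesis gave 0 higher and 3 lower, namely Asns, Psat1 and Phgdh. Because the grouping followed the values, these counts are a description only. Phgdh (log2 fold change -0.11, adjusted p = 6.30e-03) missed the threshold with Dor cKO replicate 1 left out (adjusted p = 0.0503) and with Dor WT replicate 1 left out (-0.07, adjusted p = 0.114). Among the transporters, Slc1a5 (0.29, adjusted p = 0.028) missed it when Dor cKO replicate 1 (0.19, adjusted p = 0.336) or Dor WT replicate 2 (adjusted p 0.12) was left out. Slc1a4 (0.18, adjusted p = 1.42e-03) passed with each library left out in turn.

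A list of cytosolic tRNA synthetase genes, many of which ATF4 is known to raise, and the tRNA exportin gene Xpot had 0 of 21 genes higher and 4 lower, with a median log2 fold change of -0.08. The share lower was 19%, against 13.4% of all tested genes and 18.4% of those whose mean reaches 10 CPM. At an unadjusted p under 0.05, 0 were higher and 7 lower, and DESeq2 called 0 and 3. Farsb fell by 0.49 (adjusted p = 4.27e-05), Dars by 0.27 (adjusted p = 3.20e-05) and Iars by 0.23 (adjusted p = 1.53e-03), while the abundant Sars and Qars had log2 fold changes of 0.06 and -0.07 and did not pass. Among 16 genes of the eIF2 machinery, 2 rose and 4 fell, or 12.5% and 25%. Over all tested genes 14.3% were higher and 13.4% lower, and over those whose mean reaches 10 CPM 20.2% and 18.4%. The 3 listed subunit genes of eIF2 were each lower. Eif2s3x, for the gamma subunit, had 216 and 212 CPM in Dor cKO and 253 and 251 CPM in Dor WT (log2 fold change -0.24, adjusted p = 1.18e-07). Eif2s2, for the beta subunit, fell by 0.22 (adjusted p = 1.15e-05) and Eif2s1, for the alpha subunit that the stress kinases phosphorylate, by 0.30 (adjusted p = 4.89e-04). Eif2s1 was named after its value was seen. Eif2b2, of the exchange factor whose loss causes vanishing white matter disease, did not pass (0.06).

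Eif2ak2, which encodes PKR, the eIF2 alpha kinase that double-stranded RNA activates and interferon induces, was the kinase gene that rose. It had 52.6 and 49.0 CPM in Dor cKO, against 35.1 and 33.8 CPM in Dor WT (log2 fold change 0.56, SE 0.07, adjusted p = 1.41e-07). Interferon induced genes were higher in 12 of 12 cases, against 14.3% of all tested genes and 20.2% of those whose mean reaches 10 CPM. Their summed TPM was 1067 and 1078 in Dor cKO and 523 and 521 in Dor WT. The part of interferon signalling in the level of Eif2ak2 was not tested.

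**Figure D4:**
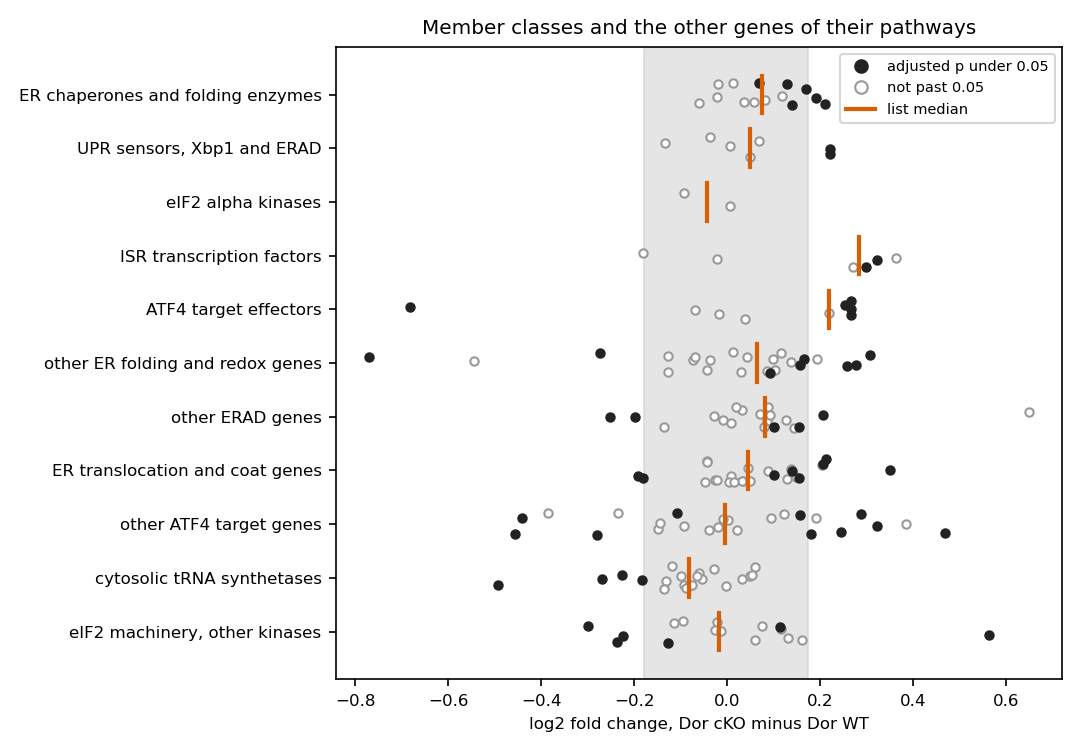
Log2 fold change (Dor cKO minus Dor WT) of every tested gene in the 5 classes and the 6 lists of other pathway genes; filled points passed an adjusted p of 0.05, orange lines are medians, and the grey band spans the quartiles of all tested genes, -0.18 to 0.17. Asns at -0.68 is the filled point farthest from 0 in the 5 classes.

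Immediate early genes, which answer to stimulation within minutes, differed in the same samples. Of 12 listed, 8 were higher and 1 lower, with summed TPM of 250 and 255 in Dor cKO and 185 and 187 in Dor WT. Heat shock genes of compartments outside the ER gave 3 higher and 4 lower of 11, with summed TPM of 2507 and 2479 in Dor cKO and 2700 and 2686 in Dor WT. Their sum was therefore lower in Dor cKO where that of the ER chaperones was higher, in every library. Hsp90ab1 and Hspa8, at mean TPM of 838 and 788, weigh most in that sum. Both were among the 4 lower, with Hsp90aa1 and Dnaja1, while the 3 higher were Hspa1a, Hspa1b and Hspb1. Erythrocyte genes had 0 higher and 2 lower of 5 (2136 and 2170 against 2317 and 2432 TPM). The shares higher were 66.7% for immediate early, 27.3% for heat shock and 0% for erythrocyte genes. The shares lower were 8.33%, 36.4% and 40%. Among all tested genes 14.3% were higher and 13.4% lower, and among those whose mean reaches 10 CPM 20.2% and 18.4%. The part that the shifts of these lists have in the values of the 38 genes was not tested.

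**Figure D5:**
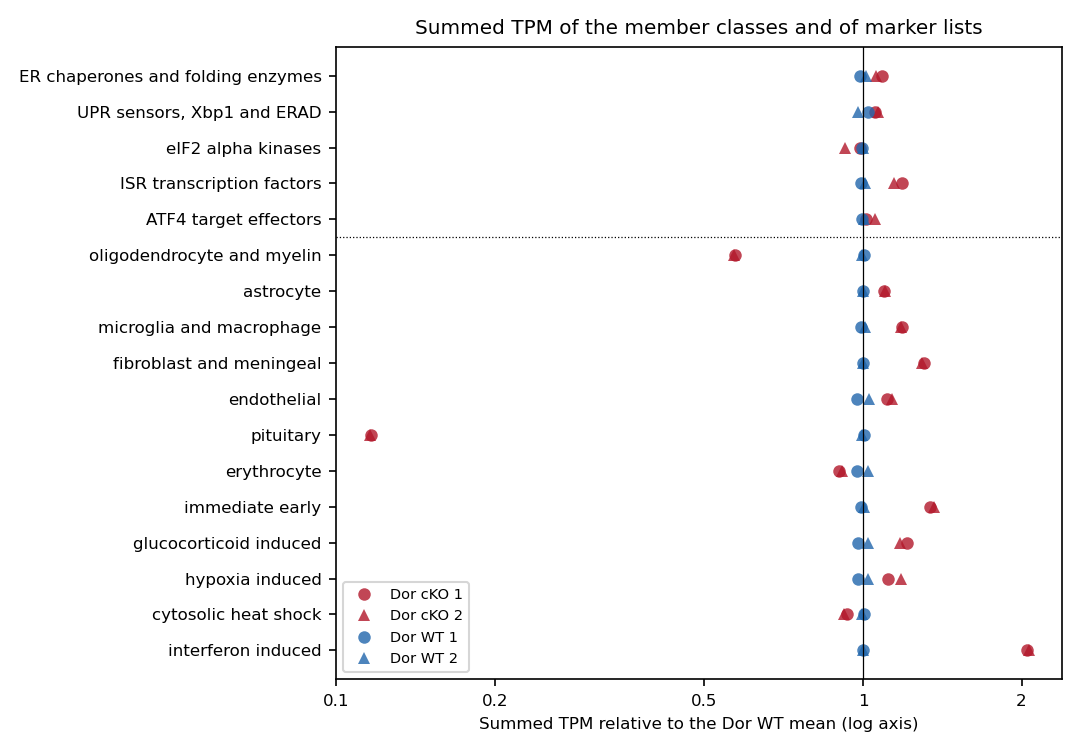
Summed TPM of the 5 classes (above the dotted line) and of 12 marker lists in each library, relative to the Dor WT mean, on a log axis; red marks Dor cKO and blue Dor WT, circles replicate 1 and triangles replicate 2. The ratio of the Dor cKO mean to the Dor WT mean lies between 0.957 and 1.17 in the classes. Among the marker lists it is 0.116 for pituitary, 0.569 for oligodendrocyte and 2.06 for interferon genes.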

How the data were processed

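Poly(A) RNA of mouse optic nerves was sequenced in 2 Dor cKO and 2 Dor WT libraries. Per the labels' protocols, 2 micrograms of total RNA entered a stranded kit, products of 200 to 500 bases were kept and paired reads of 150 bases were made. RSEM 1.3.1, STAR 2.7.9a, Trimmomatic 0.36 and the build GRCm38 are listed, per the submitters' processing notes, without their roles. Neither the strand setting nor the annotation release is stated. The deposited tables hold, per the file headers, an expected count (a read estimate that need not be whole) and a TPM per gene and library, replicates not pooled. Symbols came from GENCODE M21 and matched 55141 of 55401 IDs; rows without a symbol held 0.00297% of counts. Ddit3 has 2 IDs, and the one with counts was used.

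Expected counts were rounded. Genes were filtered with filterByExpr of edgeR 4.0.16 (minimum count 10, total 15), scaled by TMM and compared with the robust quasi-likelihood test, Benjamini-Hochberg adjusted over all 16751 tested genes and called under 0.05. SE is the log2 fold change over the root of F, and CPM uses TMM-scaled sizes. A floor of 3 counts is 0.139 to 0.174 CPM, for counting error only. Alternatives used DESeq2 1.42.0, limma 3.58.1 on log2(TPM + 1) and log2(TPM + 0.1), other scalings and filters, a removed length trend, a fixed spread and single libraries left out. The steps were tested on simulated data. All members were named, with, per pathway list, the 3 called genes of lowest adjusted p and the 2 of highest TPM, and per marker list the summed TPM. Marker lists: oligodendrocyte, astrocyte, microglia, fibroblast, endothelial, pituitary, erythrocyte, immediate early, glucocorticoid, hypoxia, heat shock and interferon. The members and lists were chosen with earlier results of these data known. Protein sequences were not used here. 1 gene that the naming rule selects is not reported here.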

Additional observations from a re-analysis of the deposited data

How the results depend on the processing

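Of 16751 tested genes, 4647 were called. The count was 1594 with a fixed coefficient of variation of 0.1, 2941 with DESeq2, 1388 with limma on log2(TPM + 1), 1406 with limma on log2(TPM + 0.1), 1150 with a minimum absolute log2 fold change of 0.5, and 3474 to 4257 with 1 library left out. The 14 members called higher became 0, 9, 2, 3 and 0 under those 5 alternatives, and 9 to 15 with 1 library left out. The 1 member called lower, Asns, became 0 under both limma fits. The other pathway genes, 23 higher and 18 lower, became 1 and 4 with the set coefficient of variation, 3 and 6 under either limma fit, and 1 and 1 with the minimum fold change. The chaperone median of 0.075 was 0.054 with total count scaling and 0.07 to 0.09 with 1 library left out. Under the limma fits with pseudocounts 1 and 0.1 it was 0.071 and 0.072. The ATF4 effector median of 0.22 was 0.034 and 0.065 under the limma fits with pseudocounts 1 and 0.1, and 0.145 to 0.278 with 1 library left out. The causes were not tested.

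Signs changed only for genes short of the threshold. Under limma with pseudocounts 1 and 0.1, the log2 fold change was 0.016 and 0.016 for Canx, -0.046 and -0.046 for Manf, -0.052 and -0.053 for Sel1l, -0.085 and -0.086 for Slc7a5, -0.004 and -0.004 for Ppib, -0.053 and -0.053 for Spcs1, and -0.018 and -0.018 for Sars. With total count scaling it was -0.009 for Manf, -0.015 for Sel1l, -0.015 for Eif2ak4 and -0.017 for Spcs1, and with the length trend removed -0.025 for Manf and -0.039 for Spcs1.
With 1 library left out, it ranged over -0.023 to 0.094 for Sdf2l1, -0.022 to 0.042 for Manf, -0.141 to 0.015 for Creld2, -0.025 to 0.117 for Atf6, -0.016 to 0.028 for Sel1l, -0.044 to 0.061 for Eif2ak4, -0.372 to 0.062 for Atf3, -0.325 to 1.478 for Cebpb, -0.393 to 0.479 for Chac1, -0.037 to 0.019 for Vcp, -0.011 to 0.019 for Spcs1 and -0.054 to 0.169 for Eif2b2.
Replicate numbers did not pair the libraries: the deviations of replicates 2 and 1 had a correlation of -0.0168 across genes. A fit with the number as a replicate block called 4971 genes and 16 members higher, adding Dnajb11 (adjusted p = 0.0498) and Ddit3 (adjusted p = 0.0319), and gave 0.012 for Chac1. Low counts limit Trib3 and Chac1, and 2 libraries a group limit every estimate of spread.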

Other observations

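The following genes were picked after their values were seen and are given as values only. Heat shock genes of compartments outside the ER went both ways. Hspb1, a small heat shock protein gene, had 83.5 and 82.6 CPM in Dor cKO and 57.2 and 56.0 CPM in Dor WT (log2 fold change 0.55, edgeR adjusted p = 1.3e-09). Hspa1a, an HSP70 gene, had 28.48 and 22.01 CPM in Dor cKO and 16.6 and 15.1 CPM in Dor WT (0.68, adjusted p = 3.04e-05), and its near-identical copy Hspa1b rose by 0.61, though reads of these copies cannot be told apart with certainty. Hspa8 and Hsp90ab1 fell by 0.11 each (adjusted p = 1.73e-05 and 3.39e-06), and Hsp90aa1 and the co-chaperone gene Dnaja1 by 0.19 each (adjusted p = 2.22e-07 and 4.8e-06). Hsph1 (-0.16), Hspe1 (-0.13), Hspd1 (-0.06) and Dnajb1 (0.11) did not pass.

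C/EBP factor genes other than Cebpb also differed in direction. Cebpd had 38.2 and 43.9 CPM in Dor cKO and 35.8 and 30.1 CPM in Dor WT (0.32, adjusted p = 5.01e-03), and missed the threshold with replicate 2 of Dor cKO (adjusted p = 0.136) or of Dor WT (adjusted p = 0.102) left out. Cebpg, a partner of ATF4, had 31.2 and 32.3 CPM in Dor cKO and 36.5 and 40.5 CPM in Dor WT (-0.28, adjusted p = 5.13e-03), and missed it with replicate 1 of Dor cKO (adjusted p = 0.0572) or replicate 2 of Dor WT (adjusted p = 0.102) left out.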
